A study of Rattus norvegicus with 458 samples.

Results

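The miR-15 family was followed through the rat body as the 5p arms of miR-15a, miR-15b, miR-16, miR-195 and miR-497, which were taken by their names. In the table of counts per miRNA name, 6 of 7534 names held one of these arms, 5 as a single name and 1 as the composite name miR-16-5p;miR-195-5p. The composite collects reads that fit both members equally well. Together the 6 names took 7819067 of the counts, or 0.745% of all.

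These microRNAs share one seed, the stretch of bases that pairs with target messages, and are best known as brakes on cell division and survival, with Ccnd1, Chek1 and Bcl2 among their described targets. They are made from tandem hairpins: miR-15a with a first copy of miR-16, miR-15b with a second copy of miR-16, and miR-497 with miR-195. In the heart, miR-195 is known for its role in the withdrawal of muscle cells from the cell cycle after birth.

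The study sequenced small RNA from tissues of 10 healthy, untreated Sprague Dawley rats, 5 of each sex and 12 to 13 weeks of age. No genetic modification is named for these rats and no treatment separated the groups, so the comparisons were between tissues and between sexes. The 458 sequencing runs came from 215 libraries, which gave 207 units (1 per rat and tissue) in 23 tissues, and 19 tissues had all 10 rats. Testicle was from the 5 males, and ovary and uterus were from the 5 females. The dorsal root ganglion was held as 10 technical libraries of 2 pools, 1 pool per sex, and was treated as 2 units. By the study's methods its RNA was supplied by Takeda Pharmaceuticals, and the labels do not tie the pools to numbered rats. Tissue and source of the RNA cannot be told apart there. The labels Cortex and Medulla stand for parts of the kidney, by the study's methods.

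Library totals ran from 376401 to 17725805 miRNA counts, with a median of 4816409. The 5 testicle libraries were the smallest, at 376401 to 653651, and no other tissue of a rat was below 1041508. The profiles of 10 libraries correlated better with another tissue than with their own label: 4 of duodenum (rats 2, 4, 7 and 11), 3 of hippocampus (rats 2, 6 and 7), and 1 each of adrenal (rat 8), ovary (rat 11) and uterus (rat 8). They were kept under their labels, and values that rest on them are also given without them. Whole blood was checked by its red cell microRNAs: miR-451-5p, miR-144-3p, miR-144-5p and the composite that holds miR-486-5p summed to between 802587 and 905856 CPM (miRNA counts of a library scaled to a total of 1000000) in the 10 blood libraries and to between 122 and 93175 in the solid tissues.

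The mature sequences are shown because the members differ only outside the seed, except where reads with a changed seed are described further on. They are RefSeq entries of build GRCr8 (U as written there), with the seed, bases 2 to 8, in capitals.
miR-16-5p: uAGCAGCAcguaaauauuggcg
miR-15b-5p: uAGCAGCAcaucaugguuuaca
miR-195-5p: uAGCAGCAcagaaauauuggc
miR-497-5p: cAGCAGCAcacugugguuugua
For miR-15a-5p, which the deposited table takes from the mouse entry, the most counted sequence of the isomiR table stands in (T as written there).
miR-15a-5p: tAGCAGCAcataatggtttgt

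The first 2 of these lie close together on chromosome 2, plus strand: miR-15b-5p at chr2:155555197-155555218 and miR-16-5p at chr2:155555343-155555364, with 124 bases between them and both within the span of Smc4, a condensin subunit gene. On chromosome 10, plus strand, miR-497-5p lies at chr10:55450172-55450193 and miR-195-5p at chr10:55450509-55450529, with 315 bases between them. RefSeq names matched 4 of the 5 members. Over the first 21 bases miR-16-5p and miR-195-5p were identical at 19, miR-15a-5p and miR-15b-5p at 18, and miR-497-5p and miR-16-5p at only 11. Mature miR-16-5p from its separate hairpins has the same sequence, so its counts could not be divided between loci.

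The family was most abundant, in CPM, in testicle, cerebellum and whole blood and least abundant in the non-glandular stomach. The testicle values come from the smallest library totals of any tissue. In testicle the family total was 23693 CPM ± 1092 (SD, n = 5), with the lowest of the 5 rats at 22157, the median at 24001 and the highest at 24890. In cerebellum it was 17970 ± 1104 (n = 10), from 15845 through a median of 18246 to 19240. In whole blood it was 16556 ± 5236 (n = 10), from 8689 through 16759 to 25288. Blood thus spread more widely between rats than the other tissues at the top, and overlapped both of them. The order of these 3 depended on the denominator. With the names that hold miR-486-5p taken out of the totals, whole blood came first at 115640 CPM ± 16327 and its lowest rat, at 84660, lay above the highest of testicle (25054) and cerebellum (19718).

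Next in order stood the dorsal root ganglion (11993 CPM, 2 pools), liver (10259 ± 778) and kidney cortex (8708 ± 1445). At the low end were the glandular stomach (3686 ± 829), the pancreas (3483 ± 352) and the non-glandular stomach (1937 ± 415, n = 10 each). The study reports the lowest RNA integrity values for pancreas, and a bearing of this on the pancreas values given here was not tested. The highest non-glandular stomach, at 2877, overlapped glandular stomach (from 2562), pancreas (from 2763) and, through 1 library, duodenum. That duodenum library, of rat 7, correlated best with cerebrum. It gave 805 CPM, and duodenum came to 4976 ± 1670 with the 4 out-of-place libraries and 5016 ± 586 without them.

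**Figure D1:**
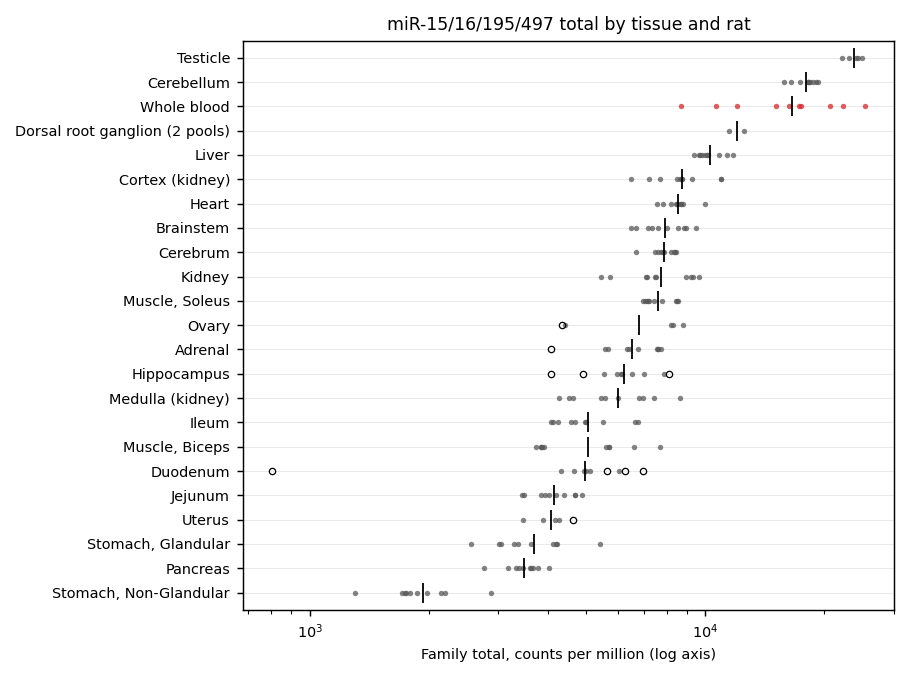
Family total in CPM (log axis) by tissue; each point is 1 rat, or 1 pool for the dorsal root ganglion, whole blood is red, vertical bars are tissue means, and open circles are libraries that correlated better with another tissue. Testicle, cerebellum and whole blood had the highest means (23693, 17970 and 16556) and the non-glandular stomach the lowest (1937). Without the miR-486-5p names, not drawn, whole blood had the highest mean (115640).

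By counts, miR-16-5p made up most of the family everywhere, and the shares of the remaining members set tissues apart. The study holds that ligase bias affected its sequencing, so that some miRNAs may be over- or under-represented. Shares and ratios of members are therefore those of reads, not of molecules. The miR-16-5p share ran from 70.8% in uterus to 96.7% ± 0.229 (SD, n = 10) in whole blood, where it lay between 96.2% and 97.0% in every rat. The chromosome 10 members, miR-195-5p plus miR-497-5p, took 24.4% ± 1.65 of the family in cerebellum (n = 10), 19.4% ± 2.10 in soleus muscle (n = 10) and 25.1% ± 8.89 in uterus (n = 5). In uterus the share was 28.9% ± 2.67 (n = 4) without the out-of-place library. In whole blood the same members took 0.0185% ± 0.0160.

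miR-15a-5p took between 1.79% (whole blood) and 5.82% (kidney cortex) of the family. miR-15b-5p was the smallest single member in every solid tissue, from 0.100% in cerebellum to 1.92% in testicle, and took 1.53% in whole blood. The composite name held 1929 counts in all, 0.0247% of the family.

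**Figure D2:**
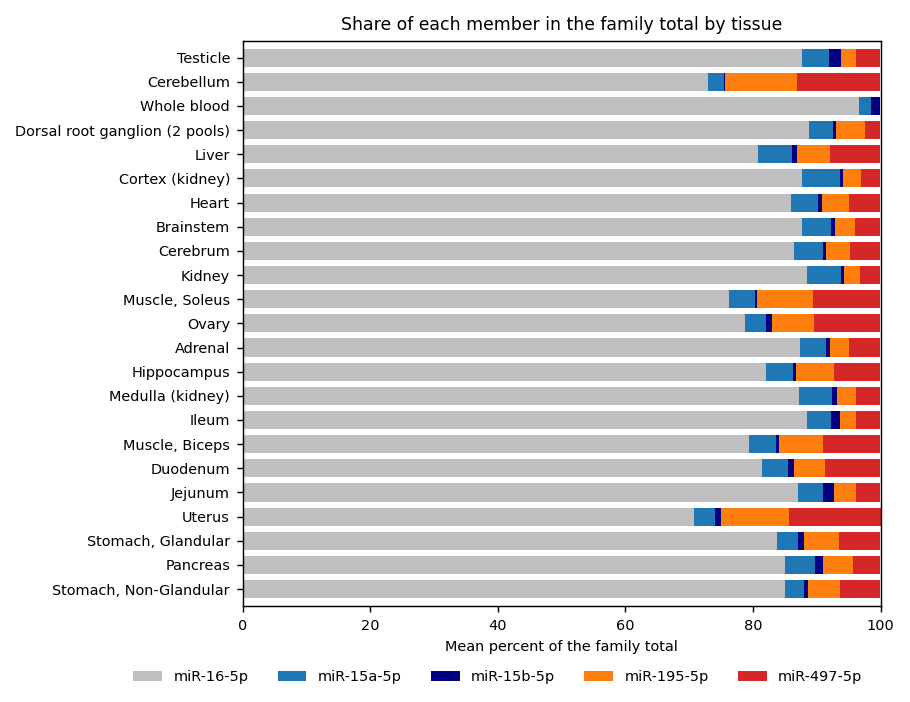
Mean percent of the family total taken by each member, by tissue, in the order of the family total (composite name not drawn). miR-195-5p and miR-497-5p reach 24.4% in cerebellum and are at 0.0185% in whole blood, where miR-16-5p takes 96.7%.

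Whole blood against the solid organs gave opposite results for the members. miR-15a-5p, miR-15b-5p and miR-16-5p were higher in whole blood than in the average of the other 22 tissues, and miR-195-5p and miR-497-5p were lower (edgeR quasi-likelihood test, upper quartile scaling, Benjamini-Hochberg adjustment over 1641 names). Of all tested names 36.1% were called higher and 16.6% lower, so that a call in either direction was common (52.7%). The median log2 change of all tested names was 0.29, and changes are read against it.

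miR-16-5p, the most abundant member, was at 16006 CPM ± 5070 in whole blood, with the lowest rat at 8419, the median at 16231 and the highest at 24476. Its log2 change was 4.36 (SE 0.13, adjusted p = 2.05e-79 by edgeR). miR-15b-5p was at 247 CPM ± 61.4, from 134 through 248 to 334, and no rat of another tissue except testicle reached 134. Its log2 change, 5.34 (SE 0.17, adjusted p = 2.54e-75 by edgeR), was the largest of the members. miR-15a-5p was at 299 CPM ± 109, from 135 through 281 to 463, and solid tissues spread from below to above it. Its log2 change was 2.99 (SE 0.13, adjusted p = 3.24e-57 by edgeR), but with library totals as the only scaling it was 0.14 (adjusted p = 0.426 by edgeR) and no longer called.

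miR-195-5p was at 1.34 CPM ± 1.62 in whole blood, from 0.518 through 0.882 to 5.87, against 69.7 to 2240 over every solid library. miR-497-5p was at 2.04 ± 2.78, from 0.425 through 1.26 to 9.83, against 84.1 to 2954. No blood library overlapped any solid library for either of them. Their log2 changes were −5.09 (SE 0.30, adjusted p = 1.62e-38) and −4.94 (SE 0.31, adjusted p = 3.19e-36), both by edgeR. These blood levels rest on few reads, 3 to 14 counts of miR-195-5p and 2 to 14 of miR-497-5p per library, apart from rat 6 with 37 and 62. Without rat 6 the blood means were 0.838 CPM ± 0.298 and 1.17 ± 0.495 (n = 9).

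The scaling moved every one of these values, and its cause was not tested for the fitted changes. Names with miR-486-5p took 85.9% ± 3.12 of all counts in whole blood (n = 10). Over all counts the family was 2.14 ± 0.677 times (SD over 10 rats) as abundant in whole blood as in the mean of the 22 solid tissues. With those names taken out of the totals it stood at 115640 CPM against 7835, a ratio of 14.8 ± 2.08. Across TMM, DESeq2 and library totals the log2 change ranged from 1.53 to 3.05 for miR-16-5p, from 2.51 to 4.04 for miR-15b-5p, from −7.77 to −6.25 for miR-195-5p and from −7.49 to −5.99 for miR-497-5p, each in the direction given above and called. The direction of miR-15a-5p was also the same, and its call ended only with library totals.

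The composite name was called higher in whole blood (log2 change 2.38, SE 0.77, adjusted p = 0.00554 by edgeR). With library totals the value was −0.63, and TMM and DESeq2 gave 0.87 and 1.06 without a call. Its reads came almost wholly from some of the flow cells: 6 of its 1929 counts were from flow cell D1GBMACXX, which held 11.6% of the counts of the 5 single members. The most counted composite sequence, tAGCAGCAcggaaatattggc, differs from miR-195-5p by A10G and from miR-16-5p by T11G, positions being counted from 1 at the 5′ end. Its level is therefore not used further.

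The opposite arms of the same hairpins were also counted, though rarely. In whole blood against the rest, 3 of the 5 tested other arms were higher (miR-15b-3p, miR-16-1-3p and miR-16-3p) and 2 were lower (miR-195-3p and miR-497-3p). Their median log2 change was 1.81, against 0.29 for all names. miR-195-3p, with log2 change −4.27 (SE 0.39, adjusted p = 3.75e-21 by edgeR), averaged 0.131 CPM in whole blood and between 4.42 (pancreas) and 65.9 (cerebellum) in the solid tissues. The call of miR-16-3p ended under TMM and DESeq2 and turned to lower under library totals (−0.85), and miR-16-1-3p was at −0.014 there.

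The other arms differ between the miR-16 hairpins where the mature 5p arms do not, and both arms were read in most tissues.
miR-16-3p: accaatattattgtgctgctt
miR-16-1-3p: ccagtattgactgtgctgctgaa
These are the most counted sequences of the isomiR table, miR-16-3p being the other arm on chromosome 2. Of the reads of either arm in whole blood, 162 of 205 were miR-16-1-3p (79.0%, 95% Wilson interval 72.9 to 84.0%), and it was ahead in 10 of 10 rats. It was also ahead in 10 of 10 rats in cerebellum (78.3%, 72.0 to 83.5%). This was not particular to blood or cerebellum: miR-16-1-3p held most of these reads in every tissue but pancreas and jejunum. Its share was 84.5% in the ganglion pools, 78.1% in cerebrum, 77.6% in duodenum and 77.5% in uterus. The 2 arms were near even in pancreas (47.4%, 40.7 to 54.1%) and jejunum (47.2%, 38.7 to 55.9%). The intervals cover counting error only, and the share of one arm is not a measure of how much 5p arm a hairpin gave.

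Names with the same bases 2 to 8 that the choice by name left out of the family total were also counted. miR-322-5p, the most counted of them with 577696 counts, averaged 5.77 CPM in whole blood and reached 4789 in ovary and 2729 in adrenal. It was lower in whole blood (log2 change −2.96, SE 0.43, adjusted p = 6.54e-10 by edgeR). Of the list of same or near seed names, 3 were tested, 1 was called lower and none higher, with miR-503-5p at 0.53 (adjusted p = 0.458 by edgeR) and miR-424-5p at −3.98 (adjusted p = 0.0720 by edgeR). miR-424-5p was called lower under TMM, DESeq2 and library totals, and miR-503-5p under library totals (−2.09). The white cell list (miR-142-3p, miR-142-5p, miR-223-3p and miR-150-5p) was called higher in 4 of 4 (median log2 change 3.14), and the red cell list in 4 of 4 (median 9.14). In CPM the summed white cell names did not stand apart in whole blood, at 483 to 2302 against 106 to 3410 in the solid tissues. Under library totals miR-150-5p turned to lower (−0.60) and miR-223-3p was no longer called. Fewer cells of a type and less RNA per cell cannot be told apart in these homogenates.

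Each member had its own order of tissues, given here in CPM of all counts. On that scale miR-16-5p and miR-15a-5p were highest in testicle, at 20794 CPM ± 1179 and 998 ± 140 (n = 5), and lowest in the non-glandular stomach, at 1647 ± 345 and 58.6 ± 18.6 (n = 10). miR-15b-5p was highest in testicle, at 455 ± 95.1, followed by whole blood and, well below, liver (78.1 ± 13.0). Without the miR-486-5p names whole blood took the first place from testicle for all 3, at 111797 CPM against 20940 for miR-16-5p, 2073 against 1005 for miR-15a-5p and 1745 against 458 for miR-15b-5p, and it was also highest in the edgeR fit. miR-15b-5p was lowest in the non-glandular stomach (11.7 ± 2.70) and in cerebellum (17.97 ± 1.73). miR-195-5p and miR-497-5p were highest in cerebellum, at 2035 ± 136 and 2357 ± 410 (n = 10). For miR-195-5p soleus muscle came next (667 ± 107), and for miR-497-5p testicle (914 ± 197, n = 5).

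Most neighbours in these orders were not called different. The pairs were set by ordering the same means, so neighbours were alike by construction and the direction of each difference was fixed beforehand. The tests were also unpaired, though most tissues came from the same rats. Over 22 tissues (without the pooled ganglion) permutation tests of log2(CPM + 1), adjusted over the 21 pairs of neighbours, called 2 pairs for miR-15a-5p, 4 for miR-15b-5p, 2 for miR-16-5p, 4 for miR-195-5p and 2 for miR-497-5p. Cerebellum stood above the next tissue for miR-195-5p (difference 1.62 on the log2 scale, adjusted p = 0.00042, permutation test) and miR-497-5p (1.37, adjusted p = 0.00699, permutation test). Whole blood stood below the next lowest tissue for the same members, by 5.53 and 5.58 (adjusted p = 0.00042 and 0.00084, permutation tests). For miR-15b-5p testicle stood above whole blood by 0.90 (adjusted p = 0.00466, permutation test), but without the miR-486-5p names whole blood stood above testicle by 1.94 (adjusted p = 0.00466, permutation test). Whole blood stood above liver (1.62, adjusted p = 0.00084, permutation test). For miR-16-5p the neighbours among testicle, whole blood and cerebellum were not called, and cerebellum stood above liver (0.66, adjusted p = 0.00084, permutation test). Without the miR-486-5p names whole blood stood above testicle by 2.40 for miR-16-5p and 1.03 for miR-15a-5p (adjusted p = 0.00466 each, permutation tests), and testicle above cerebellum by 0.64 for miR-16-5p (adjusted p = 0.00466, permutation test).

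**Figure D3:**
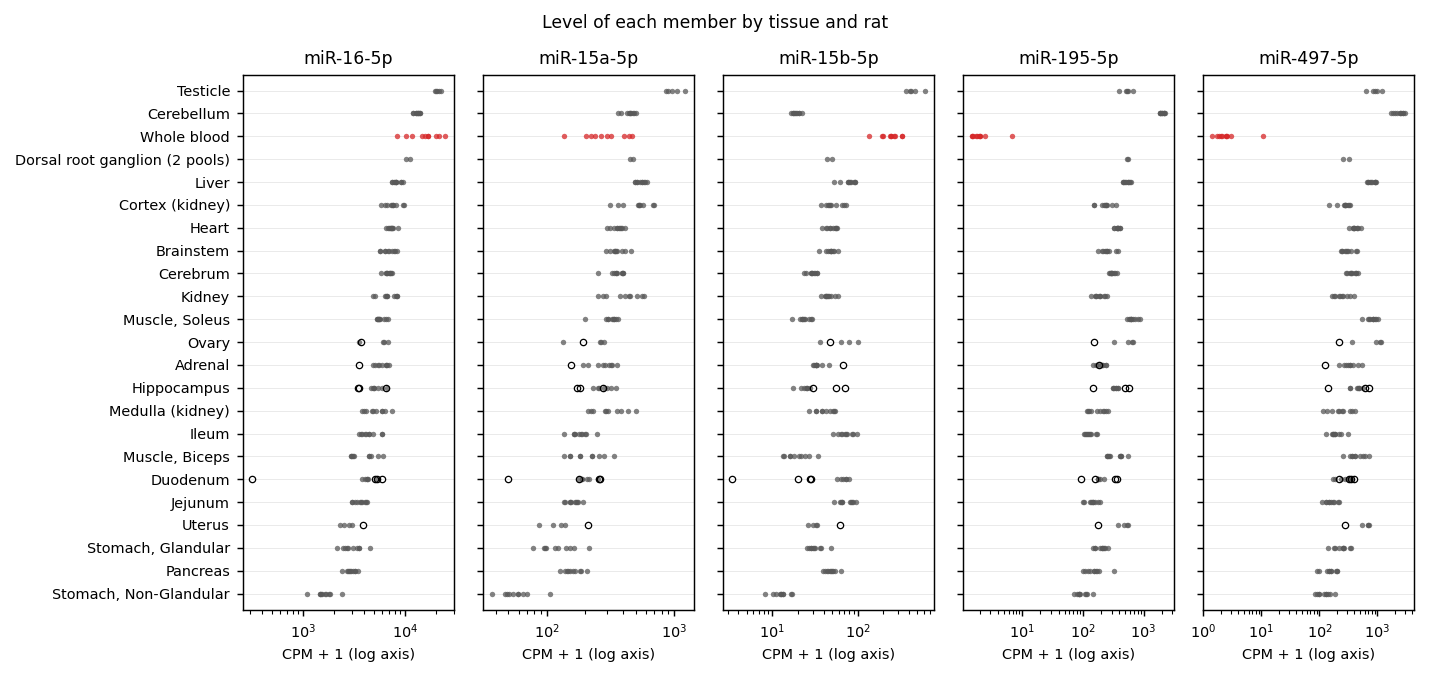
Level of each member as CPM + 1 (log axis) by tissue; points are rats (pools for the ganglion), whole blood is red and open circles are libraries closer to another tissue. miR-195-5p and miR-497-5p in whole blood lie below every solid library, and both are highest in cerebellum (means 2035 and 2357 CPM).

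Each tissue was also set against the mean of the rest with edgeR, where over the 23 tissues together 23.4% of all tests were called higher and 11.3% lower. miR-15a-5p was called higher in 6 and lower in 9 of the 23 tissues, miR-15b-5p in 6 and 7, miR-16-5p in 5 and 6, miR-195-5p in 8 and 6, and miR-497-5p in 9 and 4. On this scale the chromosome 10 members rose most in uterus (log2 change 2.14, SE 0.21, for miR-195-5p and 2.25, SE 0.21, for miR-497-5p) and cerebellum (2.10, SE 0.15, and 2.00, SE 0.16), where the medians of all names were −0.23 and −0.64 and 15.2% and 23.4% of names were called higher. In uterus the adjusted p-values were 5.91e-18 and 8.16e-19, and in cerebellum 2.29e-28 and 7.82e-25, all by edgeR. miR-15b-5p was lowest in cerebellum (−2.63, SE 0.28, adjusted p = 2.95e-16 by edgeR), where 19.2% of names were called lower.

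Brainstem had the lowest log2 change of miR-15a-5p (−1.58, SE 0.20) and miR-16-5p (−1.73, SE 0.21), but 30.1% of names were called lower there, the median of all names was −0.91, and with library totals the values were 0.41 and 0.26. A direction against the rest in brainstem or cerebrum is therefore not given for them. Upper quartile scaling and CPM also disagreed for testicle, the tissue with the most miR-16-5p in CPM, whose log2 change was −0.0063 (SE 0.25, not called). In the non-glandular stomach, lowest in CPM, miR-16-5p was at −0.11 (SE 0.18, not called). There miR-15a-5p was called lower (−0.53), miR-15b-5p was not called (−0.33), and miR-195-5p (0.46) and miR-497-5p (0.49) were called higher. Glandular stomach also had miR-195-5p (0.66) and miR-497-5p (0.62) called higher, and no other single member was called.

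The ratios between members within a library do not depend on the library total. In whole blood miR-15b-5p had nearly as many reads as miR-15a-5p: the ratio had a median of 0.885 and lay between 0.615 and 1.04 over 10 rats. The next highest tissues were testicle (median 0.443, n = 5) and jejunum (0.441), and the lowest was cerebellum (0.0407, from 0.0358 to 0.0491). For each rat, the blood log2 ratio was compared with the mean of its 18 other tissues. It was higher in 10 of 10 rats, by 2.56 ± 0.282 (SD; adjusted p = 0.00293, exact sign-flip permutation test, 2-sided, adjusted over 3 ratios). The ratio of miR-16-5p to the sum of miR-15a-5p and miR-15b-5p was also higher in 10 of 10 rats, by 0.76 ± 0.120 (adjusted p = 0.00293, same exact test), with a median of 29.2 in whole blood, 27.9 in cerebellum and 13.3 in kidney cortex.

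By tissue median, miR-497-5p and miR-195-5p kept to a narrow ratio while their levels changed. The median ratio was between 0.961 (pancreas) and 1.64 (testicle) in 21 of the 22 solid tissues. Single libraries in place in these tissues spread more widely, from 0.608 in pancreas to 2.61 in adrenal. In whole blood the median was 1.47, from 0.50 to 2.20, and did not separate from the other tissues (difference 0.10 ± 0.716 on the log2 scale, higher in 6 of 10 rats, adjusted p = 0.662, exact test). The blood ratios rest on the few reads given above. The exception by median was the dorsal root ganglion, where the pools were at 0.470 and 0.585 and the 5 technical libraries of each pool ranged from 0.343 to 0.620 (female) and from 0.324 to 0.679 (male). miR-195-5p was at 551 CPM there and miR-497-5p at 291. With 2 pools no test was made, and the separate source of the ganglion RNA cannot be told apart from the tissue.

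**Figure D4:**
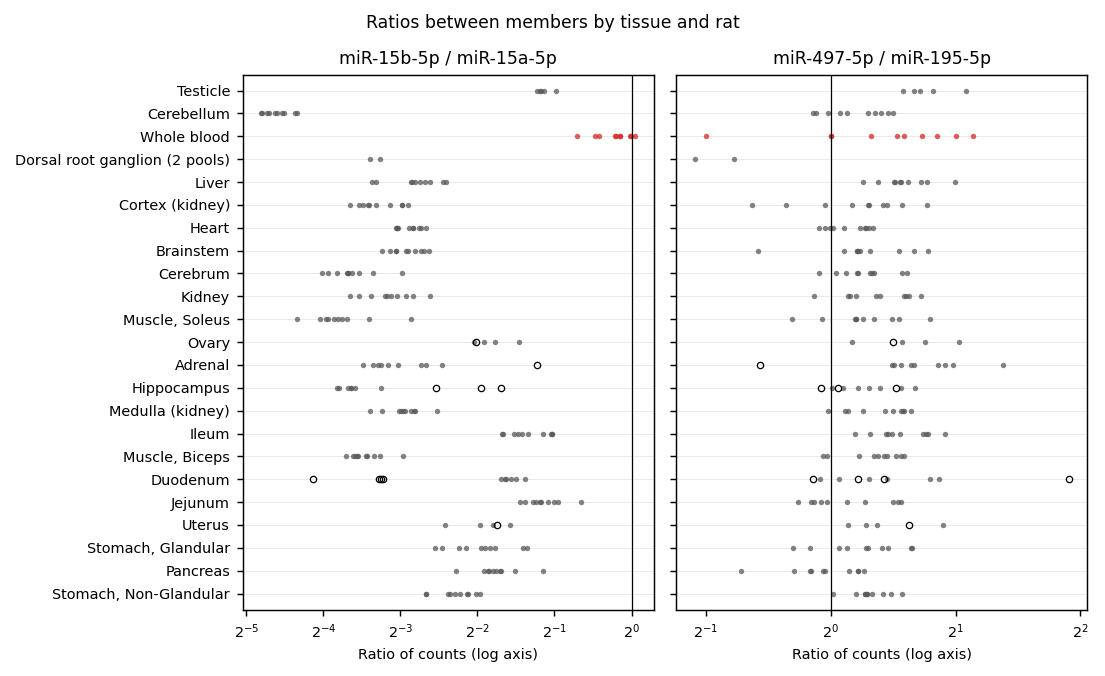
Ratio of miR-15b-5p to miR-15a-5p (left) and of miR-497-5p to miR-195-5p (right) by tissue, 1 point per rat or pool on a log axis, with a line at equal counts and open circles for libraries closer to another tissue. Whole blood (red) has a median of 0.885 on the left, above every other tissue, and the ganglion pools lie at 0.470 and 0.585 on the right.

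The 3′ ends of some members also differed in blood. The most counted sequence of miR-15a-5p, of 21 bases, took 33.0% ± 2.79 of its reads in whole blood and 52.5% ± 0.919 in the other tissues of the same rats, and was lower in blood in 10 of 10 rats (adjusted p = 0.00195, exact sign-flip permutation test, adjusted over 3 members). In its place the forms of 20 and 22 bases took 28.2% and 29.6% in blood. For miR-15b-5p the most counted sequence, of 22 bases, took 82.9% ± 2.65 in blood and 69.7% ± 1.42 elsewhere, and for miR-16-5p 90.9% ± 2.66 and 84.4% ± 1.56, each higher in 10 of 10 rats (adjusted p = 0.00195, exact test, the smallest that 10 rats allow). The SDs elsewhere are those of each rat's mean over its other tissues. Several of these tissues held a library with a far lower share. For miR-16-5p it fell to 42.5% in biceps muscle (median 88.5%) and 44.1% in brainstem (median 85.4%). Such libraries also reached 25.3% for miR-15a-5p in ileum and 29.3% for miR-15b-5p in soleus muscle. By median, miR-16-5p was at 91.5% in blood and 89.6% in ileum, the next highest. miR-195-5p was read about equally as 21 bases (42.0%) and 22 bases (41.9%) over all libraries, and miR-497-5p mostly as 21 bases (66.4%). Both had too few blood reads for a comparison. All 5 members began at the same 5′ base in 92.0% to 96.9% of their reads.

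A change in the seed stood out in cerebellum. Reads of miR-497-5p with A2G, a change of the first seed base, made up 9.62% ± 0.847 of its reads there (SD, n = 10), from 7.80% through a median of 9.64% to 10.6%. The changed form of 21 bases was the third most counted sequence of miR-497-5p, with 9477 counts. Changed bases are in capitals.
miR-497-5p A2G: cGgcagcacactgtggtttgt
miR-195-5p A5G: tagcGgcacagaaatattggc
miR-16-5p A8G: tagcagcGcgtaaatattggcg
These shares were looked at after the sequences had been seen, so no test is given. They compare reads that start at the usual base over the first 18 bases.

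The A2G share was 4.08% ± 0.699 in cerebrum (3.41 to 5.76%), 2.54% ± 1.31 in brainstem (1.71 to 6.10%) and 2.06% ± 0.440 in the 7 hippocampus libraries in place (1.32 to 2.55%). It was 2.50% by median in the non-glandular stomach (1.85 to 3.48%) and 1.72% in the glandular stomach (1.34 to 2.20%). No library outside cerebellum exceeded 6.10%, which was brainstem of rat 5. In the 129 libraries in place of the other 16 tissues with at least 100 such reads, the median was 0.173% and the highest 1.20%, in pancreas. Whole blood had 0 changed reads of 132, which allows a share of up to 2.27%.

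Both other changes also peaked in cerebellum. miR-195-5p with A5G made up 1.35 to 1.70% of its reads there and at most 1.402% in any other library. miR-16-5p with A8G made up 0.703 to 0.878% there and at most 0.425% elsewhere. These were the most frequent substitutions of their own members, and the median over the 54 possible ones was 0.0224% for miR-497-5p. For miR-16-5p the lead was small over all libraries, with A8G at 0.164%, G10A at 0.152% and C4G, also in the seed, at 0.144%. miR-15b-5p had a more frequent one outside the seed, C12A, which gives the base of miR-15a-5p at that position. It made up 1.16% of miR-15b-5p reads over all libraries and 5.64% in cerebellum, its highest tissue, on 48 counts. miR-15b-5p also had A10G at 1.23% in cerebellum. For miR-497-5p the next most frequent after A2G, A10G, was nearly confined to some runs, at 0.00589% on flow cell D1GBMACXX and 0.694% on the others, whereas A2G was at 3.43% and 3.05%. In the other members A2G stayed at 0.151% or less in cerebellum.

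Libraries closer to another tissue had shares unlike their label. Duodenum rats 2, 4 and 7, closest to cerebrum or hippocampus, had 2.91%, 2.30% and 2.25% A2G, against a highest value of 0.654% in the 6 duodenum libraries in place. The hippocampus libraries of rats 2, 6 and 7 had 0.244%, 0.418% and 0.0930%.

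**Figure D5:**
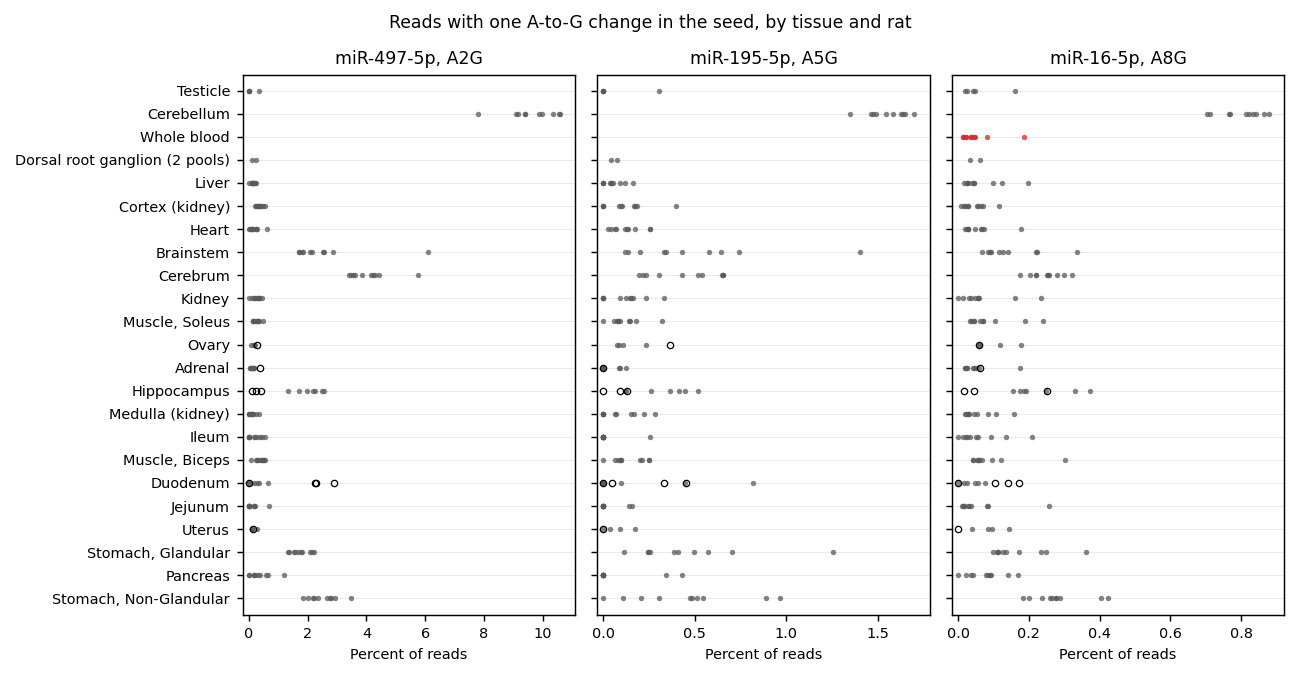
Percent of reads of miR-497-5p, miR-195-5p and miR-16-5p with 1 A-to-G change in the seed, by tissue, 1 point per rat or pool with at least 100 reads; whole blood is red and open circles are libraries closer to another tissue. Cerebellum lies highest in the left panel (7.80 to 10.6%) and in the right panel (0.703 to 0.878%), apart from every other tissue.

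Female and male rats differed little in the family. Of 95 tests (5 members in 19 tissues), 3 were called, or 3.16%, against 1.49% of all tests over names and tissues. In whole blood miR-497-5p was lower in females (log2 difference −1.33, SE 0.37, adjusted p = 0.0170 by edgeR) and so was miR-195-5p (−1.17, SE 0.38, adjusted p = 0.0496 by edgeR), where 3.12% of names were called lower and rat 6, a male, held the highest counts. Without rat 6 they were −0.72 and −0.72, and neither was called. In hippocampus miR-497-5p was lower in females (−0.94, SE 0.33, adjusted p = 0.0499 by edgeR), as were 7.22% of names, and it was 0.22 without the 3 out-of-place hippocampus libraries. The number of calls was 9 without rat 7, 1 without rat 6, 0 without rat 9, 10 or 11, and 0 with no filter on low counts. By flow cell it was 0 on D1GBMACXX alone and 1 on the others.

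Names with the most similar pattern over tissue means were sought among 402 names with a mean of at least 10 CPM, as a description. Over 23 tissues miR-195-3p was closest to both miR-497-5p (Spearman's rho 0.92) and miR-195-5p (0.92). For miR-15b-5p the closest were miR-20a-5p (0.94), miR-92a-3p (0.91) and miR-18a-5p (0.88), which come from the miR-17-92 cluster and its paralogs. For miR-15a-5p it was miR-339-3p (0.92), and for miR-16-5p miR-140-3p (0.80). Among the members, miR-15a-5p and miR-16-5p were at 0.92, and at 0.97 over the 22 solid tissues, whereas miR-15b-5p and miR-16-5p were at 0.36 and 0.27. Tissues of one rat share their handling, and the points are means.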

How the data were processed

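Small RNA libraries were sequenced by the authors, who trimmed adapters with cutadapt 1.4.1 (submitters' processing notes), kept reads of at least 17 bases and matched them to known and predicted miRNAs. They deposited counts per miRNA name and per isomiR sequence, raw and not normalized. The name miR-15a-5p is a mouse entry there. Of 458 runs, 14 that repeated a flow cell lane were left out and 444 were summed to 207 units, by rat and tissue. CPM are counts scaled to 1000000 per library. Tissues and sexes were compared with edgeR 4.0.16 (upper quartile scaling, filterByExpr, quasi-likelihood test) in one fit each; DESeq2 1.42.0, TMM and library totals were alternatives. The p-values of the fits rest on the spread between units within a tissue, and tissues of one rat were taken as independent. The permutation tests of neighbours were also unpaired, though most tissues came from the same rats, and the pairs were set by ordering the same means. Only the sign-flip tests were paired by rat. Ratios used a pseudocount of 1 count. Rat numbers pair samples of one animal (median correlation of deviations 0.0151 for the same rat, −0.00500 for others), and a rat block was an alternative. On simulated counts of 1072 names, 100% of 200 names changed by 2 (log2) in whole blood in both directions were recovered, with 5 calls among the unchanged. In a second simulation, on 1032 names with all 200 raised, 98.5% were recovered and 780 unchanged names were called. The median log2 change was −1.009 there for the unchanged names, and 0.985 for the names raised by 2. Where changes go mostly one way, a call in whole blood alone therefore does not show a change. Both simulations drew every tissue from one mean profile, so simulated blood did not carry the miR-486-5p share of the real blood libraries. Libraries were called out of place where the correlation with another tissue was over 0.05 higher. Members and lists were chosen with earlier results of these data known. Genes were named by rule: the members, fixed lists, and the 3 names of most similar pattern.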

Additional observations from a re-analysis of the deposited data

Results flagged for a closer look

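Among 198 groups of 4 to 10 samples, 23 held a value whose gap to the nearest sample was large for the range of its group; chance gives about 1 in 20. In whole blood rat 6 was highest for miR-497-5p (9.83 CPM, next 2.03) and miR-195-5p (5.87, next 1.41), and rat 7 was lowest for the log2 ratio of miR-497-5p to miR-195-5p (−1.0), which rests on 2 and 5 counts. Libraries closer to another tissue gave 9 of the 23. Duodenum rat 7 was lowest for miR-15a-5p (48.9 CPM), miR-16-5p (319 CPM), the family total (805 CPM) and the log2 ratio of miR-16-5p to miR-15a-5p plus miR-15b-5p (2.62), and highest for the log2 ratio of miR-497-5p to miR-195-5p (1.91). Adrenal rat 8 was highest for miR-15b-5p (66.1 CPM) and its log2 ratio to miR-15a-5p (−1.23), and lowest for the log2 ratio of miR-497-5p to miR-195-5p (−0.57). Uterus rat 8 was highest for miR-15b-5p (61.8 CPM).

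The remaining 11 were in libraries that matched their label. miR-195-5p was highest in pancreas of rat 10 (331 CPM). miR-15a-5p was lowest in cerebrum of rat 9 (254 CPM) and in soleus muscle of rat 10 (199.6 CPM), and highest in the non-glandular stomach of rat 8 (104 CPM). miR-15b-5p was highest in the glandular stomach of rat 6 (48.0 CPM). Heart of rat 5 was highest for miR-16-5p (8603 CPM) and the family (9996 CPM). Brainstem of rat 11 was lowest for the log2 ratio of miR-497-5p to miR-195-5p (−0.58). The log2 ratio of miR-16-5p to miR-15a-5p plus miR-15b-5p was highest in cerebrum of rat 9 (4.59) and lowest in liver of rat 7 (3.52) and pancreas of rat 4 (3.53).

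The difference between whole blood and other tissues in the share of the most counted miR-15a-5p sequence was −21.4 points ± 2.94 in females and −17.6 ± 1.66 in males (n = 5 each), a gap of −3.72 points (exact permutation test, p = 0.0476, adjusted over 6 differences 0.286), so it did not pass the correction. Outside the measured members, miR-195a-5p, a longer miR-195 form under its mouse name, held 2519 counts, and a predicted miRNA on chromosome 17 with the miR-15b-5p seed held 36 counts, both above 0 without a control sample.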

How the results depend on the processing

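The number of names higher in whole blood was 592 and became 209 with DESeq2, 271 with TMM, 122 with library totals, 1081 with no filter on low counts and 349 on flow cell D1GBMACXX alone, while the 273 lower became 455 with DESeq2, 554 with library totals and 148 on that flow cell. With library totals miR-15a-5p in whole blood was 0.14 on the log2 scale and no longer called, the composite name reversed (−0.63), and values in brainstem reversed for miR-497-5p (0.063), miR-195-5p (0.12), miR-15a-5p (0.41) and miR-16-5p (0.26), and in cerebrum for miR-15a-5p (0.40) and miR-16-5p (0.23). The ratio of the family in whole blood to solid tissues was 14.8 without the miR-486-5p names. Member calls between the sexes were 0 on flow cell D1GBMACXX, 0 with no filter, 1 on the other flow cells and 0 to 9 when 1 rat was left out. The hippocampus difference of miR-497-5p reversed with library totals (0.21), without libraries closer to another tissue (0.22) and without rat 2 (range −1.62 to 0.70), and its whole blood difference reversed on flow cell D1GBMACXX (0.39). The causes were not tested. A replicate block by rat, the same animal in each tissue, gave 3.04, 5.37, 4.44, −5.05 and −4.94 for miR-15a-5p, miR-15b-5p, miR-16-5p, miR-195-5p and miR-497-5p in whole blood and changed no call among them. The blood levels of miR-195-5p and miR-497-5p are limited by depth, at 2 to 62 counts per library.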
